A study of Homo sapiens with 5 samples.

Results

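The 4 HOX clusters were examined for binding of JMJD3 and p53 in human fibroblasts before and after DNA damage. Each cluster was taken as a fixed stretch of the hg18 assembly. The stretches, called windows here, were chr7:27090000-27225000 for HOXA, chr17:43950000-44170000 for HOXB, chr12:52610000-52745000 for HOXC and chr2:176655000-176775000 for HOXD. A binding site was counted in a window when it shared at least 1 bp with it. The windows held 42 of the 43443 sites in the 4 deposited lists, 37 of them in HOXA and 5 in HOXC. No site of any list lay in the HOXB or the HOXD window.

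The cells were BJ cells, a line of human diploid foreskin fibroblasts immortalized with hTERT, the catalytic subunit of telomerase. Untreated cells were compared with cells that had received ionizing radiation (IR), which breaks DNA, at a dose of 10 Gy. The sample labels give 6 h between IR and harvest, while the paper's text gives a slightly shorter time. DNA fragments bound by JMJD3 or p53 were collected by chromatin immunoprecipitation and sequenced (ChIP-seq). Each antibody gave 1 library from untreated and 1 from irradiated cells. Differences between untreated and irradiated cells therefore have no replicate check, and none was tested. The lists hold 4717 JMJD3 sites in untreated cells, 35133 JMJD3 sites after IR, 361 p53 sites in untreated cells and 3232 p53 sites after IR. They give positions only, without heights, scores or read totals, so read depth is unknown, and a stretch without a listed site is not shown to be unbound.

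HOX genes encode homeodomain transcription factors that give cells their position along the body axis. They lie side by side in clusters, in the order in which they act from head to tail, and adult fibroblasts keep a HOX expression pattern that depends on where in the body they were taken. In cells where they are silent, HOX genes are classic targets of Polycomb Repressive Complex 2, which methylates lysine 27 of histone H3. JMJD3 is a demethylase that removes this methylation, and p53 is a transcription factor that is stabilized after DNA damage. The paper used HOXB9 as its negative control for both proteins.

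In RefSeq (GRCh38.p14), used here for gene names and their order only, the HOXA genes lie between SKAP2 at lower and EVX1 at higher coordinates, with HOXA9, HOXA10, HOXA11 and HOXA13 in this order at the high-coordinate end. The HOXB genes run from HOXB1 to HOXB9 and then HOXB13, with PRAC2 and PRAC1 in between. HOXC and HOXD have the other orientation, with HOXC13 and HOXD13 at the low-coordinate end and HOXC4 and HOXD1 towards the high-coordinate end. HOXA13 and HOXD13 act in the limb tips and the genital tract, HOXB13 in the prostate and HOXC13 in hair and nails, while HOXB1 acts in the hindbrain. The positions of single genes in hg18 were not used here, so each site is given by its place in the window and is not assigned to a gene.

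To show what the start of a cluster gene looks like, the sequence before the RefSeq transcription start is given for the landmark genes of the clusters that the promoter table holds. These are 5 of 8, without HOXB9, HOXB13 and HOXC13. Each run is 250 bases long, 5′ to 3′ on the strand of the gene, from GRCh38.p14, and the capitals mark CpG dinucleotides, the sites of DNA methylation that are dense in many promoters of developmental genes. The letters for HOXC4 are also those listed for HOXC5.
HOXA13: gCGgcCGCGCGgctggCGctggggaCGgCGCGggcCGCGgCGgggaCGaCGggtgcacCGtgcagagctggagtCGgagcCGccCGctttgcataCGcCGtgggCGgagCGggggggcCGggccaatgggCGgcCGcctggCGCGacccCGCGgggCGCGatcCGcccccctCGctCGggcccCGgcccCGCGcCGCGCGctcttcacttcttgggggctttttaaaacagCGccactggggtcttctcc
HOXB1: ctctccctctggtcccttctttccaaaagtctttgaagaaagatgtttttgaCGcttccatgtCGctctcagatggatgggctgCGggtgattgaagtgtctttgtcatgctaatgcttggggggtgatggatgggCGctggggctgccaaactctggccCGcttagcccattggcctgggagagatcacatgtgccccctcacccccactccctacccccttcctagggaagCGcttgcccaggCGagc
HOXC4: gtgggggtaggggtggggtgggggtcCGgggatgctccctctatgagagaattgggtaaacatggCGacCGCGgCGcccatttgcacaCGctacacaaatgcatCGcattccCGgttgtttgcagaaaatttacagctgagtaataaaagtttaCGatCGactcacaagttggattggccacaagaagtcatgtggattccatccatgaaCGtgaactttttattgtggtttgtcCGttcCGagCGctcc
HOXD1: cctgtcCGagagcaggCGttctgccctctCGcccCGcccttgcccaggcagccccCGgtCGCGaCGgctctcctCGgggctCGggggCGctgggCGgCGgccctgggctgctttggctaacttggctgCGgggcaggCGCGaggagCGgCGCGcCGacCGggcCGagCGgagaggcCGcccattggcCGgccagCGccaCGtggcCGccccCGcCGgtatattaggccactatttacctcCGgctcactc
HOXD13: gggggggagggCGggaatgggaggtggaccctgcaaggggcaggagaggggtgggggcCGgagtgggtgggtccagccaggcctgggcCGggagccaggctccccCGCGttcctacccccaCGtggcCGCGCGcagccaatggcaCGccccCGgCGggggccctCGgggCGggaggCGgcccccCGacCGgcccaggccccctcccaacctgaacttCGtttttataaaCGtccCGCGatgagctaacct

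The HOXA13 stretch holds 40 CpG dinucleotides, HOXD1 31, HOXD13 21, HOXC4 14 and HOXB1 7. Over the whole 300 bases of each entry, 250 before and 50 after the start, the 27 entries for 20 of the 39 HOX genes had a median of 22 CpG dinucleotides, against 14 over all 35116 promoters in the table. Of the 27 entries, 16 are of HOXA and 8 of HOXD, but only 2 of HOXC and 1 of HOXB. Repeated sequences of a gene were dropped for the HOX genes and not over all promoters. A half-site of the p53 response element, which consists of 2 such half-sites, was found in 2 of the 27 entries (7.41%), against 6.63% of all promoters. The half-site was searched by its standard 10-base consensus, which reads the same on both strands. One of these entries is of HOXA3, with 2 matches, and the other of HOXD4, with 1. No p53 site was listed in the window of either gene, and the letters alone say nothing of binding.

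JMJD3 sites were concentrated in a single stretch of the HOXA window, past its midpoint towards the HOXA13 end. In untreated cells the HOXA window held 7 JMJD3 sites (exact 95% Poisson interval 2.81 to 14.4), or 51.9 sites per Mb. After IR it held 30 (20.2 to 42.8), or 222 sites per Mb. With sites within 1 kb of each other merged, the numbers were 6 and 12. Over the whole lists the densities were 1.55 sites per Mb in untreated cells and 11.6 after IR. These intervals cover counting error only, and since neighbouring sites are not independent they are too narrow.

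Few JMJD3 sites were listed next to the HOXA window. In stretches of the same length, 135 kb, directly below and above the window no JMJD3 site was listed in untreated cells and 1 after IR, which is 3.70 sites per Mb. In flanks of 1 Mb on each side the numbers were 5 and 1 in untreated cells, or 3 sites per Mb, and 18 and 12 after IR, or 15.0 sites per Mb. Chromosome 7 as a whole held 1.77 sites per Mb in untreated cells and 11.8 after IR. Outside the window the nearest JMJD3 sites of untreated cells were 884 kb below and 459 kb above it, and after IR the nearest below was chr7:27072496-27072630, at 17.4 kb. Above the last HOXA site after IR the next JMJD3 site was 420 kb away.

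The genome was divided into 22474 tiles of 135 kb for comparison. At least 1 JMJD3 site was found in 11.1% of the tiles in untreated cells and in 44.0% after IR. As many sites as in the HOXA window were much rarer, with 7 or more in 0.445% of the tiles in untreated cells and 30 or more in 0.196% after IR, which are 100 and 44 tiles. The largest number of sites in a tile was 28 in untreated cells and 102 after IR. Of the 100 tiles with at least 7 JMJD3 sites in untreated cells, 30 held at least 30 sites after IR, and the numbers after IR ran from 7 to 102 with a median of 22. Of these tiles 35 held 7 sites before IR, as HOXA did, and the others held more. Tiles have fixed borders that can divide a group of sites, and unmappable sequence was not masked.

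**Figure D1:**
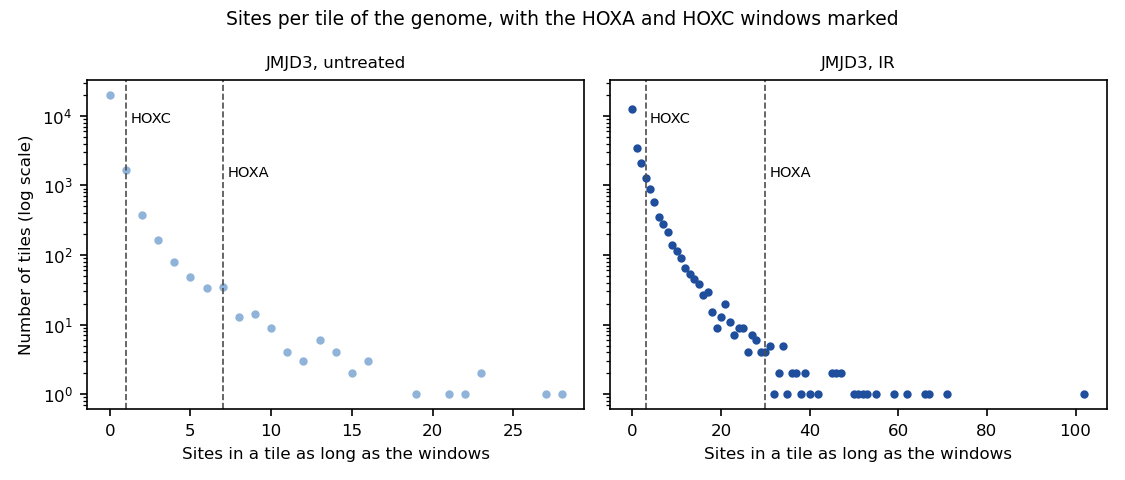
Number of tiles of 135 kb (log scale) against the number of JMJD3 sites in a tile, in untreated cells (left) and after IR (right), with dashed lines at the counts in the HOXA and HOXC windows, which have the same length. The HOXA window, with 7 and 30 sites, lies among counts that few tiles reach, and the HOXC window, with 1 and 3 sites, lies among common counts.

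Within the HOXA window the sites were unevenly placed. With the window divided into 4 equal stretches from low to high coordinates, towards HOXA13, the sites of untreated cells numbered 0, 0, 5 and 2. After IR the numbers were 1, 1, 21 and 7. The lower part of the window thus held no site in untreated cells and 2 after IR. After IR, 28 of the 30 sites formed a run in which no gap exceeded 5 kb, at chr7:27167329-27197767, which is 30.4 kb long and spans from 57.3% to 79.8% of the window. The gaps in the run were between 54 and 3624 bp, with a median of 683 bp, and the sites covered 7149 bp of it (23.5%). With gaps of at most 2 kb the largest run in the window was shorter, with 15 sites over 12.2 kb. The last 27.2 kb of the window, on the HOXA13 side, held no site.

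All 7 sites of untreated cells lay inside this run. Of 21858 runs in the whole list after IR, joined by the same rule and including single sites, 26 had at least 28 sites (0.119%), and the longest had 95. The other 2 HOXA sites after IR stood alone at lower coordinates, at chr7:27116860-27117061 (202 bp) and chr7:27136902-27137314 (413 bp). Between the second of them and the run lay 30.0 kb without a site.

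**Figure D2:**
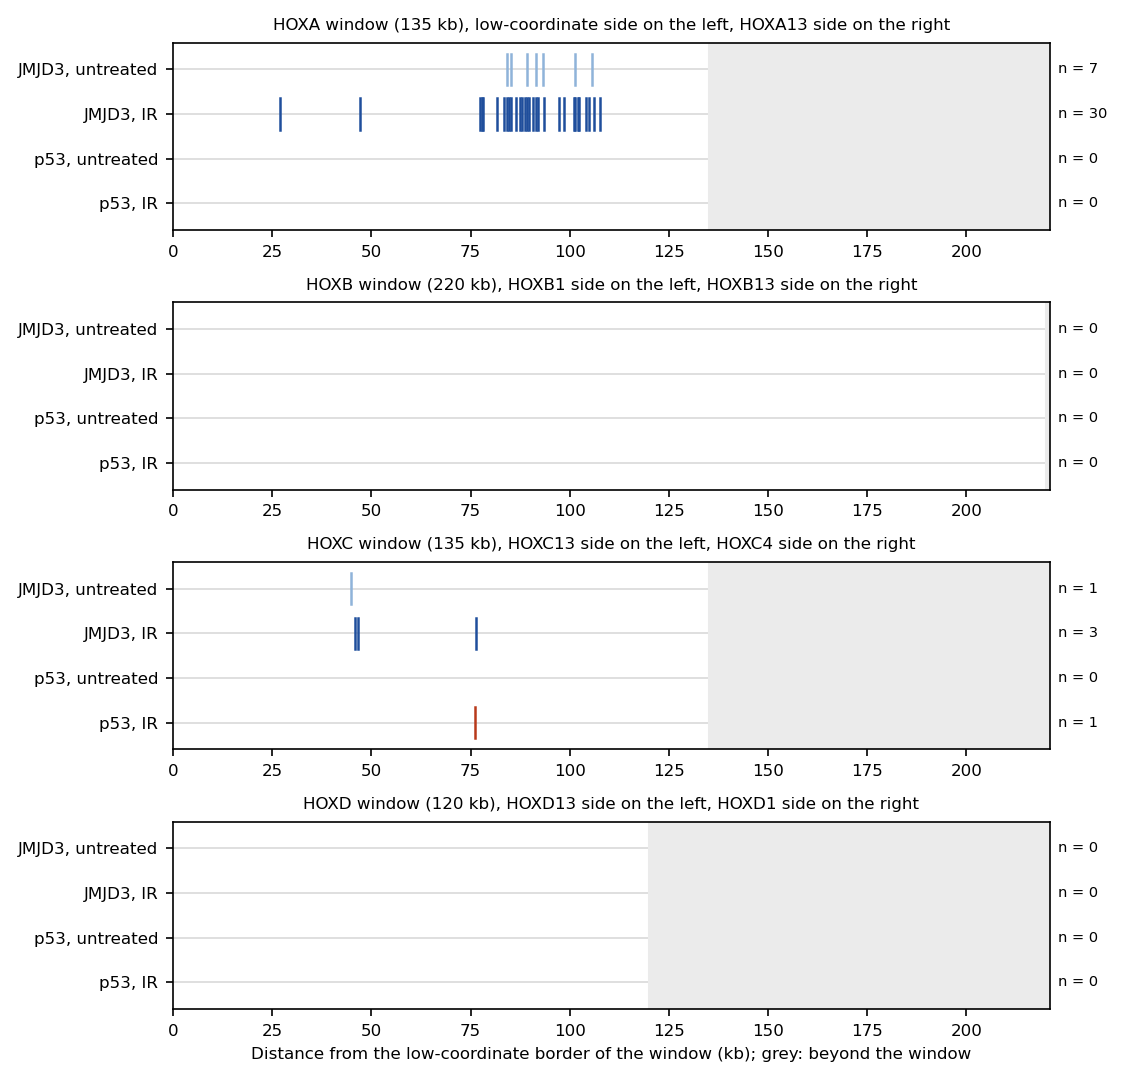
Position of every site in the 4 windows, in kb from the low-coordinate border, with a line at each site's centre and a row for each list. JMJD3 sites gather between 77.3 and 108 kb in HOXA, HOXC holds 5 sites in all, and the HOXB and HOXD windows are empty in every row.

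The sites of untreated cells in HOXA were at chr7:27174063-27174348 (286 bp), chr7:27175041-27175417 (377 bp), chr7:27178992-27179371 (380 bp), chr7:27180906-27181840 (935 bp), chr7:27183061-27183450 (390 bp), chr7:27191239-27191483 (245 bp) and chr7:27195447-27195670 (224 bp). The first 5 lay within 9.39 kb of each other, and the last 2 stood apart towards HOXA13. The widest, of 935 bp, was among the widest 3.35% of all JMJD3 sites of untreated cells, while the others were not unusual for that list, with between 21.5% and 72.0% of its sites at least as wide. Of these 7 sites, 6 overlapped a JMJD3 site after IR (85.7%, exact 95% binomial interval 42.1 to 99.6%), against 86.8% over the whole list. The exception was the site nearest to the HOXA13 side, which had a JMJD3 site after IR 420 bp away.

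The 5 widest JMJD3 sites after IR in HOXA were chr7:27178828-27179541 (714 bp), chr7:27171413-27171852 (440 bp), chr7:27136902-27137314 (413 bp), chr7:27175118-27175503 (386 bp) and chr7:27191797-27192152 (356 bp). The site of 714 bp was among the widest 1.78% of its list and covered the untreated site of 380 bp completely. The site of 386 bp also overlapped a site of untreated cells, and the other 3 did not. The widest site of untreated cells, of 935 bp, was represented after IR by separate sites at chr7:27180626-27180932 (307 bp) and chr7:27181284-27181635 (352 bp).

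After IR, 23 of the 30 HOXA sites had no overlapping site in untreated cells, and 7 did (23.3%, exact 95% binomial interval 9.93 to 42.3%). Over the whole list 11.9% of the JMJD3 sites after IR overlapped a site of untreated cells. Of the 23 sites, 14 fell inside the 21.6 kb between the first and the last site of untreated cells, 7 lay below it and 2 on the HOXA13 side, and 11 were within 1 kb of a site of untreated cells. The share of such close sites over the whole list was not counted, so the 11 have no background. The 23 sites were between 125 and 440 bp wide with a median of 205 bp. The 7 sites listed in both conditions were between 229 and 714 bp wide with a median of 307 bp. All 10 HOXA sites under 200 bp were among the 23. The whole list had the same pattern, with medians of 178 bp for the sites listed after IR only and 343 bp for those listed in both conditions, and 96.6% of its sites under 200 bp were listed after IR only.

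**Figure D3:**
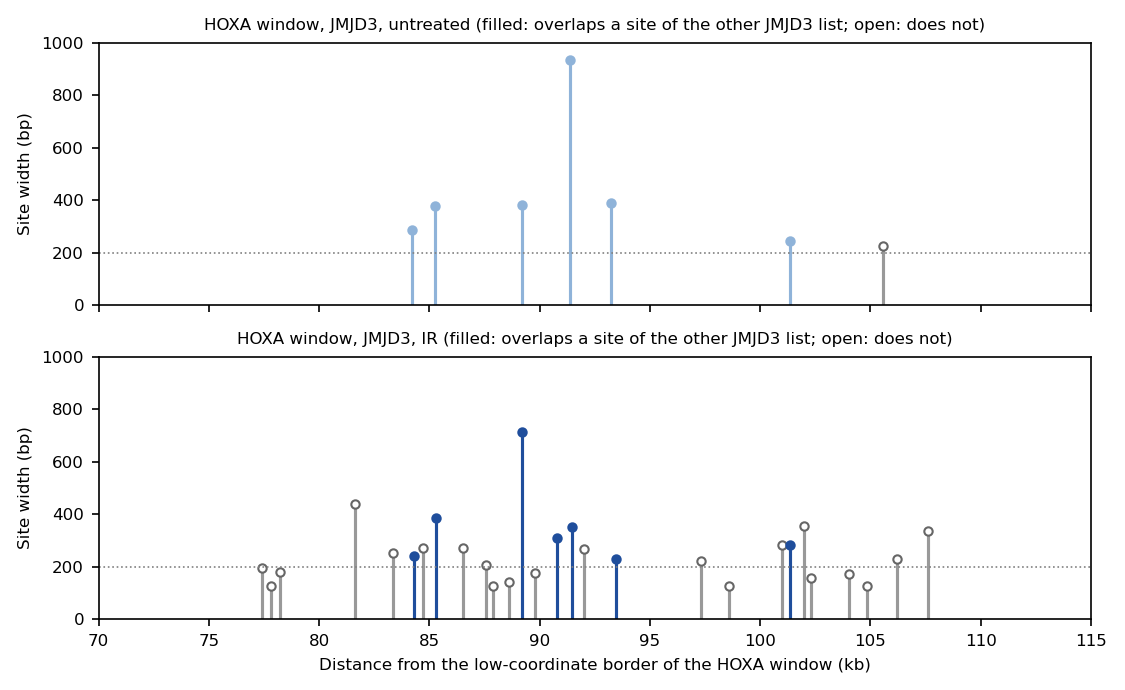
Width in bp of each JMJD3 site in the dense part of the HOXA window, in untreated cells (top) and after IR (bottom), against the distance in kb from the low-coordinate border. Filled points overlap a site of the other list, open points do not, and the dotted line marks 200 bp, under which no site of untreated cells is listed. The 10 sites below the line after IR are all open.

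The ratio of the JMJD3 site number after IR to that before IR was 4.29 in HOXA (exact 95% interval 1.84 to 11.6), and for the whole lists the ratio was 7.45 (7.22 to 7.68). These intervals also treat neighbouring sites as independent and cover counting error only, so the ratios are set side by side without a test. The length covered by JMJD3 sites in HOXA was 2837 bp in untreated cells and 7764 bp after IR, a ratio of 2.74. The covered length of the whole lists was not computed, so this ratio has no background. The list after IR holds sites down to 125 bp, while the shortest site in untreated cells is 200 bp. Counting only sites of at least 200 bp, HOXA held 7 sites in untreated cells and 20 after IR, a ratio of 2.86 (1.16 to 8) against 3.28 (3.17 to 3.39) for the whole lists. Of the tiles of 135 kb, 0.133% held 20 or more such sites after IR. The share of sites under 200 bp after IR was 33.3% in HOXA and 56.0% in the whole list.

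No p53 site was listed in the HOXA window before or after IR. The JMJD3 sites of HOXA after IR were between 418 and 499 kb from the nearest p53 site after IR, and between 2139 and 2220 kb from the nearest p53 site in untreated cells. The p53 sites that flank the window after IR were chr7:26698362-26698622 and chr7:28110332-28110787, with 1412 kb between them. At least 1 p53 site was found in 12.5% of the tiles of 135 kb after IR and in 1.55% in untreated cells, so most windows of this length hold none.

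The HOXC window held few JMJD3 sites and the only p53 site of the 4 clusters. In untreated cells a single JMJD3 site was listed, at chr12:52654663-52654900 (238 bp), with its centre at 33.2% of the window from the HOXC13 side. After IR 3 JMJD3 sites were listed, at chr12:52655682-52655829 (148 bp), chr12:52656671-52656820 (150 bp) and chr12:52686174-52686328 (155 bp). All 3 were under 200 bp, a width at which no site is listed in untreated cells, and counting only sites of at least 200 bp HOXC went from 1 JMJD3 site to 0. None of the 3 overlapped the site of untreated cells, and the nearest was 781 bp from it, while over the whole list 11.9% of the JMJD3 sites after IR overlapped one of untreated cells. The 3 sites (exact 95% Poisson interval 0.619 to 8.77) amount to 22.2 sites per Mb, against 7.41 in the flanks of 135 kb, 38.0 in flanks of 1 Mb and 15.5 on chromosome 12 as a whole, and 19.4% of the tiles of 135 kb held 3 or more JMJD3 sites.

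p53 was listed after IR at chr12:52686033-52686304 (272 bp), at 56.4% of the HOXC window, and not in untreated cells. The JMJD3 site of 155 bp shared 131 bp with it, and the centres of the sites were 82.5 bp apart. Neither protein had a site listed there before IR. The JMJD3 site is narrower than the narrowest in the list of untreated cells, 200 bp, and with sites of at least 200 bp the p53 site had no overlapping JMJD3 site. The nearest JMJD3 site of untreated cells was 31132 bp away and the nearest p53 site of untreated cells 1829618 bp away. Over the whole list, 686 of the 3232 p53 sites after IR (21.2%) overlapped a JMJD3 site after IR, so the site in HOXC belongs to a group with many members. It was not wide for its list, as 55.5% of the p53 sites after IR were at least as wide. The next p53 site after IR was 201614 bp away. Outside the HOXC window the nearest JMJD3 sites were 304 kb below and 216 kb above it in untreated cells, and 84.7 kb below and 70.8 kb above it after IR.

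HOXB, the cluster of HOXB1, HOXB9 and HOXB13, held no JMJD3 or p53 site in untreated or irradiated cells. In the stretches of 220 kb directly below and above it 4 and 7 JMJD3 sites were listed after IR, or 25.0 sites per Mb. In flanks of 1 Mb on each side the numbers were 16 and 13, or 14.5 sites per Mb, and chromosome 17 as a whole held 20.4 sites per Mb. The nearest JMJD3 sites after IR were chr17:43918912-43919054, 30.9 kb below the window, and chr17:44361331-44361668, 191 kb above it, so that HOXB lay in a stretch of 442 kb with no JMJD3 site. In untreated cells the nearest JMJD3 sites were 44.3 kb below and 778 kb above. The nearest p53 site after IR was 715 kb below, and in untreated cells 2217 kb above.

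Of the tiles of 220 kb, 53.2% held a JMJD3 site after IR, 16.5% a JMJD3 site in untreated cells, 18.9% a p53 site after IR and 2.50% a p53 site in untreated cells. Stretches of at least 442 kb between neighbouring JMJD3 sites after IR made up 26.1% of chromosome 17 and 47.4% of the genome. By number, 26 of the 1607 stretches on chromosome 17 (1.62%) were at least as long as the one that holds HOXB. Unmappable sequence, which adds empty tiles and stretches, was not masked.

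HOXD, with HOXD13 and HOXD1 at its ends, was likewise empty in all 4 lists. Directly below it, in a stretch of 120 kb, 1 JMJD3 site was listed after IR, at chr2:176575243-176575518, 79.5 kb from the border, and none in the same length above it. These flanks thus held 4.17 sites per Mb, against 5.5 in flanks of 1 Mb and 12 on chromosome 2 as a whole. The next JMJD3 site above the window was chr2:177028024-177028155, at 253 kb, which makes a stretch of 453 kb with no JMJD3 site. Stretches at least as long made up 46.0% of chromosome 2 by length, and by number they were 92 of 2915 (3.16%). In untreated cells the nearest JMJD3 sites were 1238 kb below and 1022 kb above. The nearest p53 site was 968 kb above the window both in untreated cells and after IR. Of the tiles of 120 kb, 41.6% held a JMJD3 site after IR, 10.0% a JMJD3 site in untreated cells, 11.3% a p53 site after IR and 1.38% a p53 site in untreated cells.

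Across the 4 clusters, JMJD3 was listed in 2 windows both before and after IR, and p53 in none before and 1 after IR. Among tiles as long as the windows, between 41.6% and 53.2% held a JMJD3 site after IR, between 10.0% and 16.5% a JMJD3 site in untreated cells, and between 11.3% and 18.9% a p53 site after IR. The JMJD3 count of 2 of 4 windows was thus near the background after IR and above it in untreated cells, and with sites of at least 200 bp HOXA was the 1 window with a JMJD3 site after IR, against 28.3% of the tiles of 135 kb. The listed number of sites differed, with JMJD3 densities after IR of 222 sites per Mb in HOXA, 22.2 in HOXC and 0 in HOXB and HOXD. For the counts of 0 the exact Poisson intervals reach up to 16.8 sites per Mb in HOXB and 30.7 in HOXD. Both limits lie above the 11.6 sites per Mb of the whole list. The HOXC interval, 0.619 to 8.77 sites, overlaps them, so counting error alone does not separate HOXC from HOXB and HOXD. With 1 library each, these differences between clusters were not tested. The counts are for whole windows and do not give the surroundings of single genes such as HOXA13, HOXB13, HOXC13 and HOXD13.

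**Figure D4:**
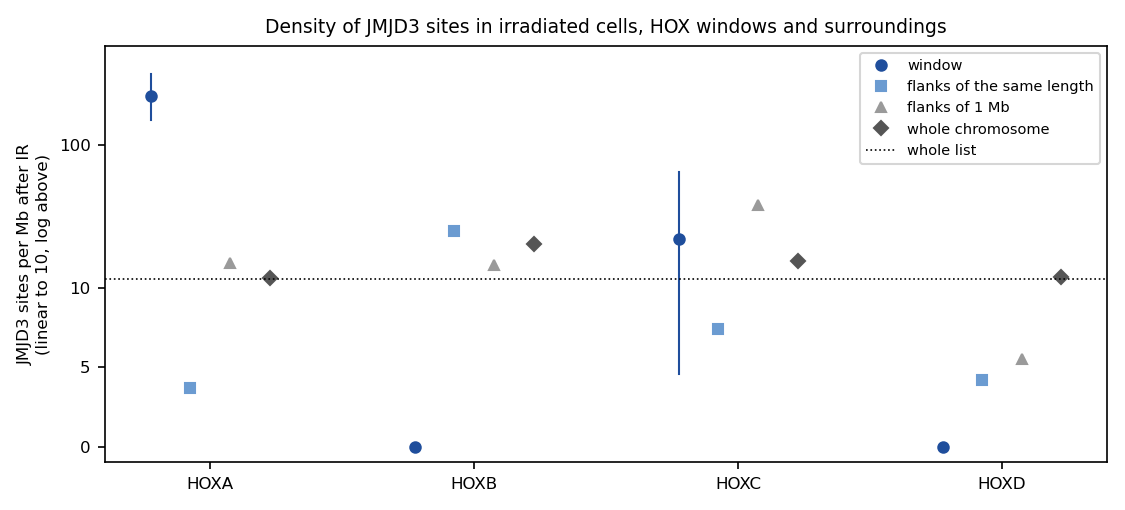
JMJD3 sites per Mb after IR in each HOX window (circles), in the flanks of the same length and of 1 Mb on each side, on the whole chromosome and in the whole list (dotted line), on an axis that is linear to 10 and logarithmic above. Bars on the circles are exact 95% Poisson intervals, drawn for windows with at least 1 site. HOXA, at 222 sites per Mb, stands above its flanks and chromosome, and HOXB and HOXD are at 0.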

How the data were processed

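ChIP-seq was performed by the authors with antibodies against JMJD3 and p53 in untreated and irradiated BJ cells, with 1 library each. Tags were aligned to hg18 with Bowtie 0.12.7, keeping unique alignments, and each library's peaks were called with MACS version 2 relative to IgG, following the paper's methods. The threshold is not given in the sources used here. The IgG library in the labels came from untreated cells and was not used here. In the lists deposited by the authors each row has 3 columns, which give the chromosome and both ends of a site, and no counts or scores. Depth is unknown, and keeping unique alignments leaves repeats uncovered.

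Sites in the windows were counted in Python 3.11.15, with starts raised by 1 so that positions count from 1. Intervals are exact 95% intervals from scipy 1.17.1, and figures were drawn with matplotlib 3.10.9. Tiles were laid side by side from position 1 of each chromosome to its last listed site, 3036 Mb in all, without the incomplete tile at the end. Counting, tiling and joining of runs were tested on simulated data, where 6 of 6 planted values were recovered. Named sites followed a rule: all sites in HOXC, and in HOXA all p53 sites, all JMJD3 sites of untreated cells and the 5 widest after IR, with the nearest sites outside. The 2 lone HOXA sites and the pair after IR at the widest untreated site were chosen for naming once their values had been seen. The windows, genes and lists were chosen with earlier results of these data known. Alternatives were the centre rule, moved borders, a minimum width of 200 bp, merging within 1 kb, other overlap rules, shifted tiles, autosomes and wider flanks. Single HOX genes were not placed in hg18.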

Additional observations from a re-analysis of the deposited data

How the results depend on the processing

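Numbers of sites were taken as moved when they changed by over 1.5 times, shares and densities when they left the exact 95% interval of the main value, which is narrow for shares of many tiles, and median widths when they moved by over 1 SD of the widths. Of 105 comparisons of a result with an alternative, 94 stayed within these limits and 11 moved. Many could not move. A count of 0 cannot rise with the centre rule, borders moved inward, a minimum width or merging. The minimum of 200 bp also changes no list except that of JMJD3 after IR. The 94 are therefore no measure of stability. The change from 30 to 20 JMJD3 sites in HOXA after IR with this minimum was counted as within the limits. The gap limits for runs and the alternatives for the tiles as full as HOXA were chosen after the data were seen. HOXB and HOXD stayed at 0 in all lists under every alternative for the site numbers. Of these alternatives, only borders moved outward, by 10 kb, could have added a site. The nearest site of any list was 30.9 kb from the HOXB window and 79.5 kb from the HOXD window, out of reach of this move. The unchanged 0 is therefore no measure of stability either. Merging sites within 1 kb left 12 JMJD3 sites after IR in HOXA in place of 30, by construction. With sites of at least 200 bp, HOXC held 0 JMJD3 sites after IR, the density in HOXA was 148 sites per Mb, that of its flanks 0, and 28.3% of the tiles of 135 kb held a JMJD3 site after IR, since fewer sites enter. On autosomes alone the share of such tiles was 11.5% for JMJD3 in untreated cells, 45.5% for JMJD3 after IR and 13.0% for p53 after IR. With sites within 1 kb taken as overlapping, 100% of the JMJD3 sites of untreated cells in the windows were listed again after IR in place of 75.0%, and 57.6% of those after IR had a counterpart before IR in place of 21.2%. Whole-list shares under the 1 kb rule were not counted. The whole-list 86.8% and 11.9% are for a shared base and are no background for these shares. With gaps of at most 2 kb the HOXA run held 15 sites in place of 28. With shifted tiles 0.227% held 30 or more JMJD3 sites after IR. No paired analysis was possible because there is only 1 library per antibody and condition, and the unknown depth limits every comparison before and after IR.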
